A study of Mus musculus with 20 samples.

Results

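The genes described here encode the cytoplasmic factors that start and extend protein chains on the ribosome. They are 62 protein-coding genes, out of 39174 genes in the files, whose symbols begin with Eif1, Eif2, Eif3, Eif4, Eif5, Eif6, Eef1 or Eef2. The rule reads symbols and no measured value, and 1 further protein-coding gene of these prefixes was not analysed here. Another 5 genes with such symbols are 4 pseudogenes and 1 lincRNA gene and were left out. RNA came from primary motoneuron cultures of embryonic CD-1 mouse spinal cord, grown in microfluidic chambers that let axons reach a compartment separate from the cell bodies and dendrites. Control cultures, titled GFP in the labels, carried a lentiviral vector without a knockdown sequence, and Tdp-43 knockdown cultures carried a lentivirus expressing 1 short hairpin RNA against Tardbp, the gene of Tdp-43, an RNA-binding protein. The 20 libraries are 4 control somatodendritic, 6 knockdown somatodendritic, 4 control axonal and 6 knockdown axonal libraries. Each was made from minute amounts of total RNA that were amplified by PCR before sequencing, and the labels do not say which libraries came from separate cultures, so that p-values measure the spread between libraries. The control datasets had been described before, and per the study's methods control and knockdown motoneurons were processed in parallel. With only 1 hairpin, effects of Tdp-43 loss and of that hairpin's other targets cannot be told apart.

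Translation begins when eIF2, a complex of 3 subunits, brings the initiator transfer RNA to the small ribosomal subunit, which also binds eIF1, eIF1A, eIF5 and the many-subunit scaffold eIF3. The eIF4F group recruits the messenger RNA: eIF4E binds the cap, eIF4G is the scaffold, eIF4A unwinds the leader, and the 4E-binding proteins hold eIF4E back when growth signals are low. eIF2B reloads eIF2 with GTP, and stress-activated eIF2 kinases block that step. During elongation eEF1A delivers aminoacyl transfer RNAs, the eEF1B subunits (Eef1b2, Eef1d, Eef1g) recycle it, and eEF2 moves the ribosome along. Axons translate a subset of messenger RNAs locally, which is why the factors' own transcripts are of interest in an axonal compartment.

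The values are FPKM, that is fragments scaled to transcript length and to the mapped total of the library, and levels of different genes are compared on this per-length scale. Levels below are scaled FPKM, the deposited FPKM divided by a factor for each library (median of ratios over 4577 genes), unless deposited FPKM are named. The files give confidence bounds from which a number of fragments per gene can be estimated if the bounds are taken as counting error alone. It is not a count of reads, and any other uncertainty in the bounds lowers it. In knockdown somatodendritic replicate 6, for example, it was 0.05 for Eef1d at 13.7 deposited FPKM. Numbers of fragments below are these estimates. They were small: the median member had 9.59 to 18.4 in control somatodendritic libraries, 1.16 to 12.5 in knockdown somatodendritic, 6.59 to 11.1 in control axonal and 0.480 to 19.4 in knockdown axonal libraries. Over the 20 libraries 30 of 62 members had a median of at least 10 fragments, and only Eef1a1, Eef2 and Eif4g2 had at least 100. Knockdown axonal replicate 5 had 0.0922 and knockdown somatodendritic replicate 6 had 0.148 of the depth of the deepest library.

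Several features of the libraries bear on every comparison. Tardbp stood at 18.3 to 28.97 scaled FPKM in control and at 0 to 6.43 in knockdown somatodendritic libraries (log2 change -3.06 ± 0.57 SE, limma, adjusted p = 0.0228). In axonal libraries it stood at 17.6 to 48.4 in control and 1.38 to 26.9 in knockdown, so that the groups overlapped (log2 change -1.71 ± 0.63, adjusted p = 0.427). The pan-neuronal transcripts Tubb3 and Stmn2 were abundant in all libraries, whereas the defining motoneuron genes Isl2, Mnx1 and Chat were listed at 0 in all 20 and Slc5a7 in all but 1. Isl1, another motoneuron gene, reached 3.64 in control and 7.12 in knockdown somatodendritic libraries, with 1 of 4 and 2 of 6 at 0, and in axons was above 0 in 1 control library alone (10.2). Whether the rows listed at 0 reflect absent RNA could not be checked. The summed level of 10 neuronal markers was 1288 to 1614 in control somatodendritic and 535 to 928 in control axonal libraries, and that of the 3 dividing-cell markers Mki67, Top2a and Cdk1 was 41.8 to 61.4 and 123 to 244.9. The sum of 6 fibroblast markers was 1.81 to 11.2 and 15.6 to 68.4, and that of 7 astrocyte and radial glia markers 285 to 354 and 127 to 615, in the same groups. Of the fibroblast markers, Col1a1 alone stood at 0.736 to 6.62 and 15.6 to 52.1. Lum was at 0 in these axonal libraries, and Dcn reached 1.82 and 1.83. The sum of 7 Schwann cell and oligodendrocyte markers was 49.9 to 100.5 and 14.1 to 57.4. That of 6 microglia and endothelium markers was 3.86 to 27.4 and 0 to 5.11. In knockdown axonal libraries the neuronal sum was 408 to 902 and the dividing-cell sum 15.4 to 267, and in knockdown somatodendritic libraries 1023 to 1613 and 0.847 to 43.2. In bulk RNA, a change in the mix of cells and a change within cells cannot be told apart. The axonal libraries also fall into sets that do not overlap: mitochondrial messenger RNAs made up 4.59% to 12.8% of protein-coding FPKM in 3 control and 2 knockdown libraries, and 23.0% to 33.03% in 1 control (replicate 4) and 4 knockdown libraries (replicates 2, 4, 5 and 6). Each axonal comparison is therefore also given with that property as a term or within the low set.

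Members took 1.72% to 1.80% of protein-coding FPKM in control somatodendritic, 1.70% to 2.07% in knockdown somatodendritic, 1.46% to 2.22% in control axonal and 1.104% to 2.38% in knockdown axonal libraries, ranges that overlap throughout. Without mitochondrial transcripts in the denominator the medians of the groups were 1.94%, 2.08%, 2.17% and 1.90% in the same order. The order of levels was steep. Eef1a1, the main eEF1A gene, held 35.2% of all member FPKM in control somatodendritic libraries and led in all groups. Eif4g2, which encodes an eIF4G relative without the eIF4E-binding region, Eef2 and Eif3h, an eIF3 subunit, followed, with means of 613 ± 41.8, 280 ± 8.49 and 149.5 ± 9.0 scaled FPKM (SD, n = 4). Eef1a2, the eEF1A form of neurons and muscle, came next with 117 ± 14.3. Some 43 members averaged at least 10 scaled FPKM there and 49 did so in control axons. At the low end, Eif4e1b was listed at 0 in all 20 libraries and Eif4ebp3 was at 0 in all but 1 library of each group and too low to enter a comparison, so 60 of 62 members entered each comparison.

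The annotated start sites of 48 members could be read in RefSeq (GRCm38.p6, 250 bases before to 50 after the start). Growth-regulated translation factor messages are known to begin with a C followed by a run of pyrimidines, and ETS-family factors are known to bind the letters CCGGAAGT. A C followed by at least 5 further C or T, within 5 bases of the start and not preceded by a pyrimidine, was found in 6 of the 48 (12.5%) against 8.09% of 27025 genes. CCGGAAGT, on either strand anywhere in the 300 bases, was found in 9 of the 48 (18.8%) against 4.31% of all genes. The windows below are 30 bases long, 5′ to 3′ on the gene's strand, with the matched letters in capitals, and are shown for some of the members whose levels are described further on.
Eef1a1, chr9:78481710-78481739, minus strand, pyrimidine run: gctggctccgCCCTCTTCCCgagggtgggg
Eif3l, chr15:79075217-79075246, plus strand, pyrimidine run: tcttcttccgCTCTCTCCCacgggcttctg
Eif4g1, chr16:20672716-20672745, plus strand, pyrimidine run: agcgcagctccgCCCTCTgcgccggtcacg
Eif3l, chr15:79075176-79075205, plus strand, CCGGAAGT read on the other strand: ggctgggcgggACTTCCGGtccggccaagc
Eef1b2, chr1:63176821-63176850, plus strand, CCGGAAGT: ctgcagttccgCCGGAAGTagccgaggcct
Eif5a, chr11:69920667-69920696, minus strand, CCGGAAGT: cagccgtagcaCCGGAAGTgttccccattg
Eif3l carries both kinds of match, and Eef1b2 and Eif5a one. A match describes the letters only.

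In the somatodendritic compartment, the knockdown comparison asked which factor transcripts differed after Tdp-43 depletion. Eif4g2 was higher and Eif1, Eif1ax, Eif2s3x and the eEF1B genes Eef1b2, Eef1d and Eef1g were lower at an unadjusted p under 0.05, together with a higher Eif4a3. These are 2 members higher and 6 lower of 60 tested, where 4.59% of 13762 genes were higher and 9.22% lower at this threshold, so the members' shares, 3.33% and 10.0%, lay near those of all genes. No member passed an adjusted p under 0.05, as against 0.218% and 0.756% of all genes higher and lower. The members' median log2 change was -0.15 beside -0.13 over all genes.

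Eif4g2 (ENSMUSG00000005610, chr7:111067985-111083030, build GRCm38) had the smallest p of the members. Its level was 615, 557, 620 and 658 scaled FPKM in control replicates 1 to 4, and in the knockdown the lowest, median and highest values were 732, 825 and 861. All 6 knockdown libraries lay above all 4 controls, also in the deposited FPKM (579 to 740 against 905 to 1080). The log2 change was 0.42 ± 0.09 (SE, limma, adjusted p = 0.0523), and adjusted p ranged from 0.00922 to 0.197 over the alternatives. Groups that do not overlap in this direction were seen for 1.80% of all genes as scaled and 4.24% as deposited. In the other direction it was 3.71% and 1.96%. Eif4g2 had a median of 155 estimated fragments. A snoRNA gene lies inside Eif4g2, listed at a mean of 32.0 in control and 3.97 in knockdown, and reads shared between overlapping genes can be split by the counting.

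Eif1 encodes the factor that guards start codon choice during scanning. Its control values were 44.4, 32.3, 65.1 and 62.5, and the knockdown values ran from 15.5 over a median of 17.8 to 33.4, with 1 knockdown library above the lowest control. The log2 change was -1.22 ± 0.27 (adjusted p = 0.0574, limma), on a median of 4.26 estimated fragments per library. Without knockdown replicate 6, the shallowest somatodendritic library, the adjusted p was 0.0226, and Eif1 was then the 1 member under 0.05. Eif1ax, one gene of eIF1A, is on the X chromosome and stood at 10.1, 11.8, 12.3 and 11.7 in control against 4.73, 6.23 and 9.30 (lowest, median, highest) in the knockdown. The groups did not overlap as scaled (log2 change -0.74 ± 0.27, limma, adjusted p = 0.231), but did in deposited FPKM (10.8 to 13.1 against 6.29 to 11.5). The other 3 eIF1 members did not pass the unadjusted threshold, with log2 changes from -0.06 for Eif1a to 0.31 for Eif1ad.

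All 3 eEF1B genes had lower levels. Eef1b2, the exchange factor subunit, stood at 80.2, 27.1, 77.5 and 74.2 in control and at 9.93, 25.8 and 49.9 (lowest, median, highest) in the knockdown. Control replicate 2 lay within the knockdown values and apart from the other controls (log2 change -1.38 ± 0.42, limma, adjusted p = 0.149). Eef1g, the structural subunit, stood at 123, 85.8, 61.1 and 88.9 in control and at 39.8, 56.8 and 75.4 in the knockdown (log2 change -0.64 ± 0.22, adjusted p = 0.209). Eef1d, the second exchange factor, stood at 28.9, 34.1, 61.4 and 42.6 against 12.1, 27.2 and 35.9 (log2 change -0.74 ± 0.33, adjusted p = 0.350). For Eef1g and Eef1d the groups overlapped, and leaving out 6 of the 10 libraries in turn took Eef1d past an unadjusted p of 0.05.

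The other elongation genes did not pass the unadjusted threshold. Eef1a1 had a log2 change of 0.02 ± 0.15, Eef1a2 of 0.14 ± 0.16 and Eef2 of 0.12 ± 0.11 in the same libraries. Eef2 was 288, 286, 272 and 274 in control and 262, 304 and 347 (lowest, median, highest) in the knockdown. These 3 are the elongation genes with the most estimated fragments. Eef1e1, of the synthetase complex, had -0.26 ± 0.22 and Eef2k, the kinase of eEF2, 0.03 ± 0.49. No test compared the eEF1B genes with these.

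Of the eIF2 subunits, Eif2s3x, the X-linked gamma subunit, differed. It stood at 22.0, 19.7, 23.2 and 28.1 in control and at 12.9, 16.2 and 17.5 in the knockdown, with no overlap as scaled (log2 change -0.55 ± 0.20, limma, adjusted p = 0.229). In deposited FPKM the groups overlapped (20.5 to 31.6 against 15.98 to 23.0). Its Y-linked partner Eif2s3y ranged from 0.887 to 10.7 in control and 1.104 to 14.8 in the knockdown, on a median of 0.339 estimated fragments. Eif2s1, the alpha subunit that the stress kinases phosphorylate, stood at 6.93, 6.41, 6.08 and 6.22 in control against 3.62, 5.48 and 9.40 (log2 change -0.11 ± 0.31). The 14 eIF3 subunits were split, 4 higher and 10 lower with a median of -0.14, and none passed. The eIF2B genes (1 higher, 4 lower) and the eIF2 kinases (2 and 2) held no member past the threshold either.

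Within the eIF4F group the DEAD-box gene Eif4a3, whose protein belongs to the exon junction complex, was at 67.0, 86.4, 55.0 and 76.2 in control and 78.8, 88.2 and 101 in the knockdown (log2 change 0.34 ± 0.15, adjusted p = 0.346, limma). This difference was lost at an unadjusted p under 0.05 without any 1 of 5 libraries. Eif4a1, the main helicase, was 69.4, 65.0, 81.0 and 71.6 against 52.9, 76.5 and 82.1 (log2 change -0.01 ± 0.16). Eif4e stood at 25.5, 14.8, 26.5 and 28.5 against 7.402, 19.9 and 23.3, and Eif4g1 at 50.5, 64.0, 49.98 and 62.6 against 49.3, 69.4 and 79.0. Eif4ebp2, the 4E-binding protein of neurons, was 22.5, 20.8, 15.2 and 15.5 against 4.78, 24.8 and 38.8. Their log2 changes were -0.38 ± 0.32, 0.25 ± 0.17 and 0.22 ± 0.47, none past the threshold. Eif6, which keeps ribosomal subunits apart, was 26.3, 25.5, 19.0 and 25.7 against 0, 20.3 and 37.7, the 0 being knockdown replicate 6. Eif5a, the hypusine-bearing elongation helper, was 70.02, 64.2, 59.1 and 66.7 against 52.3, 58.4 and 86.0 (log2 change -0.05 ± 0.16).

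The direction of small changes depended on scaling. In deposited FPKM the median of all genes moved to 0.04 and that of the members to 0.05, with 9 members higher and 2 lower at an unadjusted p under 0.05, where 9.27% and 5.44% of all genes were. Relative to all genes the members' median was -0.02 as scaled, 0.01 as deposited and -0.07 after quantile normalization.

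In the axonal compartment the same comparison gave 2 members higher and 8 lower at an unadjusted p under 0.05, where 2.14% of 13958 genes were higher and 6.46% lower. None passed an adjusted p under 0.05, which 0.0143% and 0.387% of all genes did. Eif4g2 and the eIF3 subunit gene Eif3k were higher. Eif2b5, Eif3l, Eif3b, Eif6, Eif4a1, Eef2, Eef1b2 and Eef1d were lower. The members' median log2 change was -0.30 beside -0.17 over all genes. In the deposited values the direction turned: 5 members were higher and 1 lower, near the 7.16% and 2.67% of all genes, and the members' median was 0.13 beside 0.23 over all genes. Relative to all genes this was -0.13 as scaled, -0.10 as deposited and -0.13 after quantile normalization. With the high mitochondrial share as a term, 2 members were higher and 4 lower, where 1.69% and 3.99% of all genes were. The count of 10 fell to 4 without control replicate 2 and to 6 without control replicate 1 or 3, and was 14 without knockdown replicate 3.

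**Figure D1:**
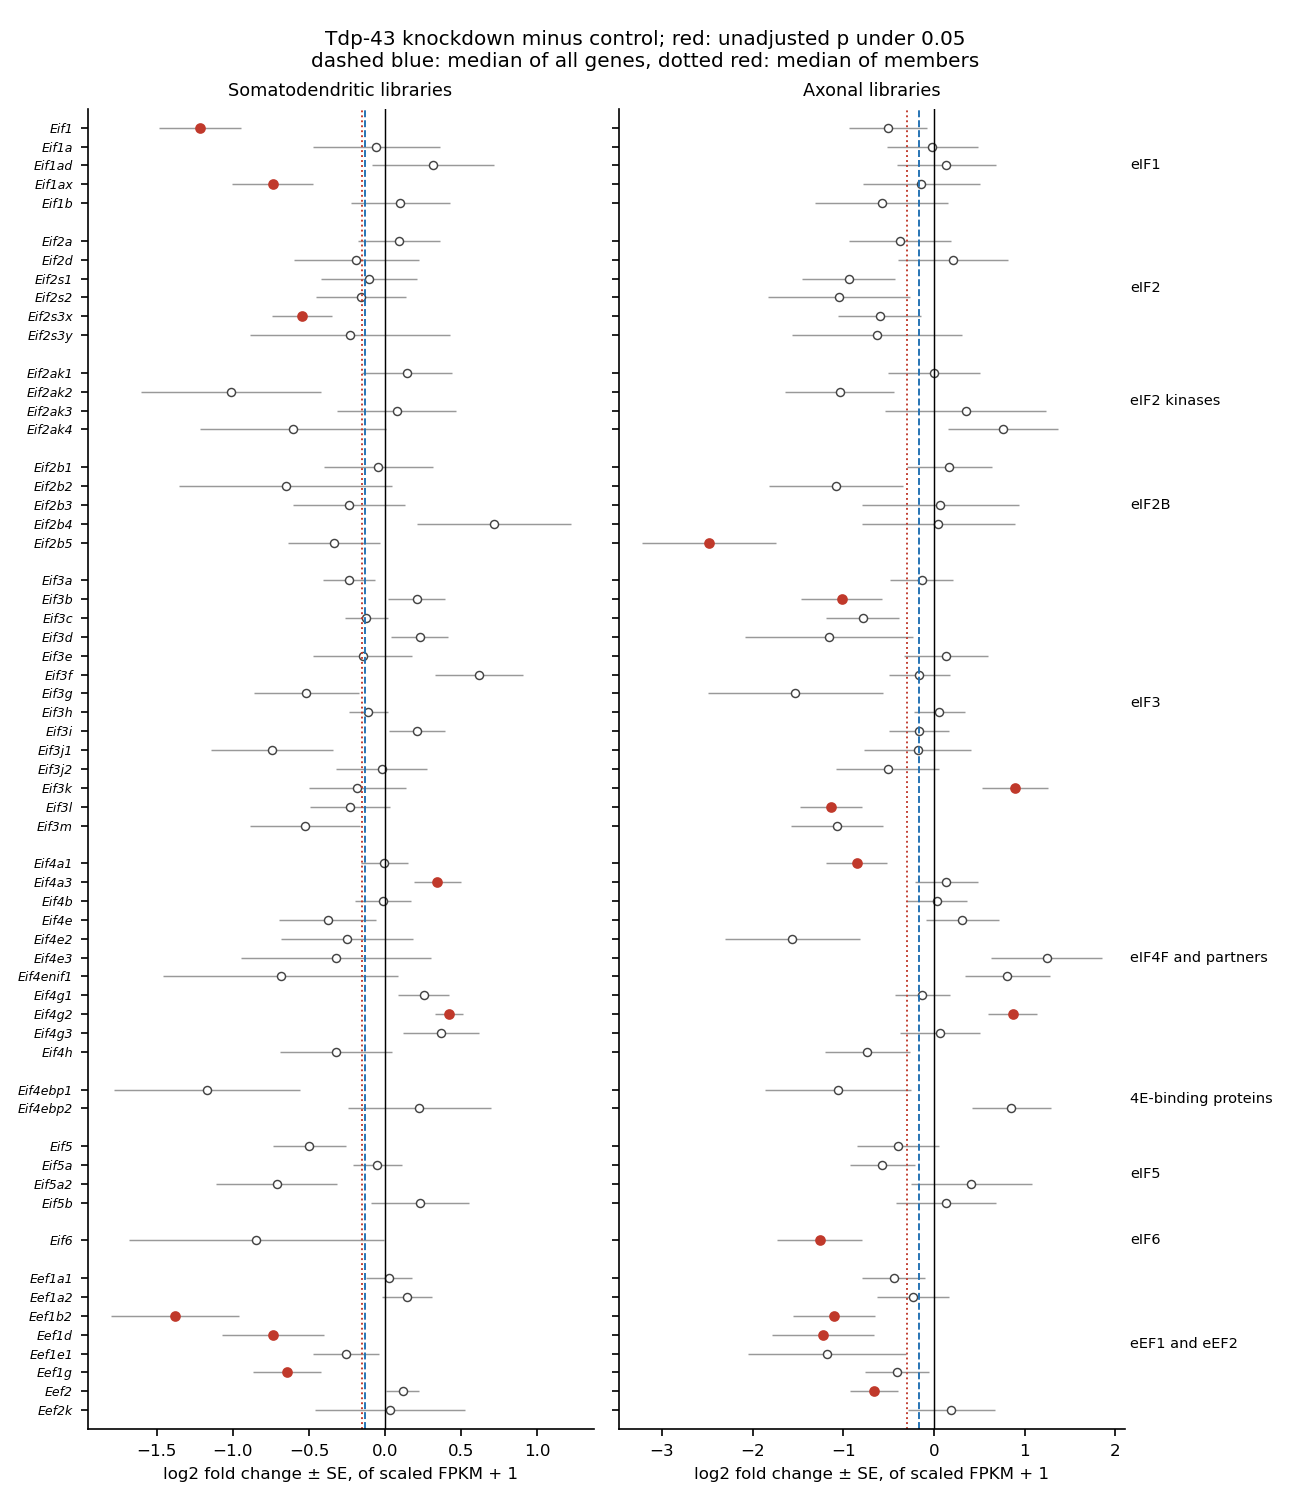
Log2 fold change (± SE, x axis) of each of the 60 tested members after Tdp-43 knockdown in somatodendritic (left) and axonal libraries (right), ordered by complex; red points have an unadjusted p under 0.05, the dashed line is the median of all genes and the dotted line that of the members. Eif4g2 is to the right in both panels, at 0.42 and 0.87.

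Eif4g2 was again higher. Its control axonal values were 351, 406, 381 and 517 scaled FPKM, and the knockdown values ran from 593 over a median of 727 to 932. All 6 knockdown libraries exceeded all 4 controls, which held upward for 0.437% of all genes. The same was true of the deposited FPKM (246 to 394 against 600 to 1148), where it held for 2.52% of all genes. The log2 change was 0.87 ± 0.27 (limma, adjusted p = 0.286), 1.23 within the low mitochondrial set and 0.85 with that property as a term. The snoRNA gene inside Eif4g2 was listed at a mean of 38.9 in control and at 0 in knockdown axonal libraries.

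Eif3l, an eIF3 subunit of the outer ring, had the tightest knockdown values of the members that differed. The controls were 95.6, 51.2, 52.0 and 65.2, and the 6 knockdown libraries lay between 25.1 and 29.7 with a median of 28.4, without overlap (log2 change -1.14 ± 0.34, limma, adjusted p = 0.263). Groups without overlap in this direction were seen for 2.11% of all genes as scaled and 0.731% as deposited. In deposited FPKM the groups overlapped (34.7 to 66.9 against 23.1 to 40.6). Within the low mitochondrial set the controls were 51.2 to 95.6 and the 2 knockdown libraries 28.9 to 29.5.

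Eif2b5 encodes the catalytic subunit of eIF2B. It stood at 9.28, 36.4, 28.1 and 8.66 in control and at 0, 2.54 and 8.33 (lowest, median, highest) in the knockdown, 2 libraries being listed at 0 (log2 change -2.49 ± 0.74, adjusted p = 0.260, limma). The groups did not overlap, but the lowest control and the highest knockdown library were 8.66 and 8.33. In deposited FPKM they overlapped (6.503 to 26.5 against 0 to 11.5), and the gene had a median of 3.52 estimated fragments. The other 4 eIF2B genes had log2 changes from -1.08 to 0.17 and none passed.

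Eef2 stood at 564, 576, 404 and 446 in control and at 260, 294 and 377 in the knockdown, without overlap (log2 change -0.66 ± 0.27, limma, adjusted p = 0.488). Eef2 had 441 estimated fragments in the median library. In deposited FPKM the groups overlapped (269 to 420 against 241 to 465) and the log2 change was -0.14, so that the size of this difference follows the scaling. Eif4a1 stood at 159, 174, 163 and 85.9 against 53.7, 71.7 and 118 (log2 change -0.85 ± 0.34, adjusted p = 0.484). Its control replicate 4, the control library of high mitochondrial share, lay among the knockdown values. The pseudogene Eif4a-ps4, which may share reads with Eif4a1, stood at 130 to 192 in control and 46.1 to 168 in the knockdown.

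Among the eEF1B genes, Eef1b2 and Eef1d were lower in axons too, and their values differed between the sets of mitochondrial share. Eef1b2 stood at 94.6, 201, 116 and 39.1 in control and at 24.3, 42.8 and 84.5 in the knockdown (log2 change -1.101 ± 0.45, limma, adjusted p = 0.49). Within the low set its 3 controls were 94.6 to 201 and the 2 knockdown libraries 24.3 to 35.0, whereas in the high set the control was 39.1 and the knockdown libraries 38.5 to 84.5. Eef1d stood at 94.5, 82.5, 116 and 29.9 against 7.06, 35.1 and 87.1 (log2 change -1.22 ± 0.56, adjusted p = 0.565), again with control replicate 4 apart from the other controls. Within the low set Eef1d was 82.5 to 116 in control and 33.8 to 36.7 in the knockdown. Eef1g stood at 168, 121, 153 and 82.0 against 56.0, 90.7 and 164 and did not pass (log2 change -0.41 ± 0.35). With the high mitochondrial share as a term neither Eef1b2 (log2 change -1.07) nor Eef1d (-0.88) passed an unadjusted p under 0.05. A fit to the low set alone gave -1.96 for Eef1b2 and -1.28 for Eef1d. The part of the mitochondrial share in these results was not tested.

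Eif6 stood at 75.5, 75.4, 31.4 and 40.0 in control and at 10.2, 23.9 and 35.2 in the knockdown (log2 change -1.26 ± 0.47, limma, adjusted p = 0.433). Eif3b, an eIF3 core subunit named here after its values were seen, ranged from 31.1 to 84.4 in control and 9.47 to 33.9 in the knockdown (log2 change -1.02 ± 0.44). The highest Eif3b value was again control replicate 4, and a fit to the low set alone gave -0.28. Eif3k went the other way, from 72.3, 143, 47.8 and 62.1 in control to 90.9, 144 and 182 in the knockdown (log2 change 0.89 ± 0.36, limma, adjusted p = 0.49). Of the 14 eIF3 genes 3 were higher and 11 lower. Eif1 and Eif2s1 did not pass the unadjusted threshold in axons: Eif1 had 42.2, 55.4, 71.2 and 45.0 against 15.7, 43.9 and 59.9, and Eif2s1 had 11.6, 12.2, 13.6 and 11.1 against 2.54, 5.11 and 13.7.

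Single libraries weighed on the rest. Knockdown axonal replicate 5, the shallowest library, held the highest Eif1ax (104, the next being 18.5) and Eif2s3x (65.5, the next being 20.4) of its group. In this library 47 of 62 members were above 0. Eif2s3x in the 4 controls was 32.9, 34.7, 35.5 and 26.3.

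**Figure D2:**
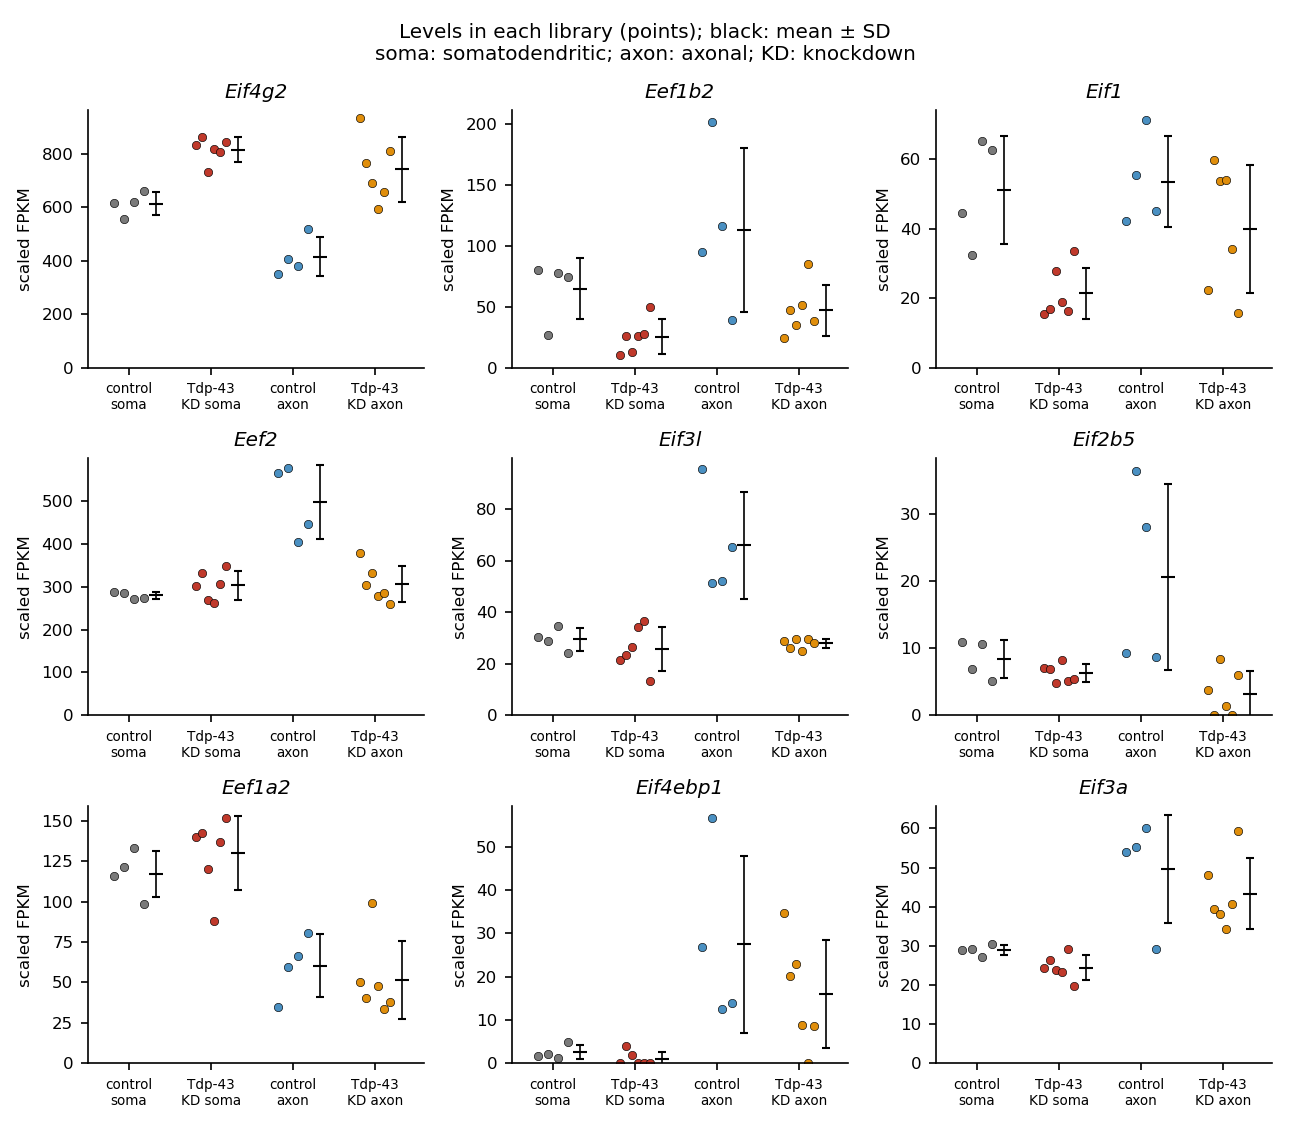
Scaled FPKM (y axis) of 9 members in each of the 20 libraries, by group (x axis), with black bars for mean ± SD. Eif4g2 is higher in all knockdown than in all control libraries of the same compartment, Eef2 and Eif3l are highest in control axons, and Eef1a2 and Eif4ebp1 differ between compartments.

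A contrast of both knockdown effects asked whether they differed between compartments. At an unadjusted p under 0.05, 1 member had a more positive and 5 had a more negative effect in axons, where 2.59% and 2.48% of 12646 genes did. Eef2 (difference of log2 changes -0.78 ± 0.24), Eif2b5 (-2.15 ± 0.81), Eif3b (-1.22 ± 0.47), Eif4a1 (-0.85 ± 0.35) and Eif3l (-0.90 ± 0.39) had the more negative effects and Eif3k (1.07 ± 0.49) the more positive one. No member passed an adjusted p under 0.05 (limma), and the lowest was 0.922 for Eef2. Of all genes 0.0316% passed it, all of them downward. For Eif4g2 the difference was 0.45 ± 0.24, and for Eif1 0.71 ± 0.51, neither past the unadjusted threshold. In the deposited values 3 members were more positive and 1 more negative, where 5.01% and 1.03% of all genes were. The members' median difference was then 0.10 beside 0.22 over all genes, against -0.19 beside -0.01 as scaled. Within the low mitochondrial set the counts were also 3 and 1, beside 4.59% and 1.74% of all genes.

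Control axons were compared with control somatodendritic libraries to see which factor transcripts were relatively abundant in axons. As scaled 42 of 60 members were higher in axons, and as deposited 19 of 60. At an unadjusted p under 0.05, 13 were higher and 2 lower of 60, where 12.1% of 13760 genes were higher and 10.7% lower. At an adjusted p under 0.05, 6 were higher and 1 lower, beside 4.19% and 2.56% of all genes. The median log2 difference was 0.32 over members and -0.02 over all genes. Relative to all genes the members' median was 0.34 as scaled, 0.24 as deposited and 0.24 after quantile normalization. The deposited values shift all genes down by a median of 0.48, and 1 member was then higher and 9 lower at an unadjusted p under 0.05, and 1 higher and 4 lower at an adjusted p under 0.05. Of all genes 5.34% were then higher and 25.98% lower unadjusted, and 344 of 13760 higher and 12.4% lower adjusted. These control axonal libraries also enter the knockdown comparison in axons, so a high control value raises the one difference and lowers the other. Leaving out any 1 of the 4 control somatodendritic libraries left 1 member past the adjusted threshold, Eif4ebp1, and leaving out axonal replicate 1 or 2 left 3.

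Eif4ebp1, the 4E-binding protein controlled by mTOR signalling and by stress, showed the largest difference of the members. It stood at 1.78, 2.22, 1.32 and 4.98 scaled FPKM in somatodendritic replicates 1 to 4 and at 26.8, 56.5, 12.6 and 13.99 in axonal ones. The groups did not overlap, as scaled or as deposited (1.41 to 5.60 against 8.37 to 41.2), and groups without overlap were seen upward for 8.31% of all genes as scaled and 3.33% as deposited. Of the members 13 did so as scaled and 2 as deposited. The log2 difference was 2.84 ± 0.52 (limma, adjusted p = 0.00993), and adjusted p stayed between 0.00769 and 0.0392 over the alternatives. The gene had a median of 1.99 estimated fragments per library. The dividing-cell marker sum and the fibroblast marker sum, most of the latter being Col1a1, were also higher in these axonal libraries. Their part in the result was not tested.

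The elongation factors diverged between compartments. Eef2 was higher in axons at 564, 576, 404 and 446 against 288, 286, 272 and 274 in the somatodendritic libraries (log2 difference 0.81 ± 0.17, limma, adjusted p = 0.0198). In deposited FPKM the groups overlapped (269 to 420 against 291 to 308) and the log2 difference was 0.22 (adjusted p = 0.427). Eef1a1 was 2355, 2213, 1723 and 1591 against 1415, 1582, 1518 and 1298 (log2 difference 0.42 ± 0.18, adjusted p = 0.180), and in deposited FPKM it was lower in axons (-0.17). Eef1a2 went the other way, with 34.7, 59.8, 66.5 and 80.7 in axons against 116, 121, 133 and 98.5 (log2 difference -0.997 ± 0.26, limma, adjusted p = 0.0461). Eef1a2 was lower in axons as scaled, as deposited (-1.58) and after quantile normalization (-1.16). Groups without overlap were seen downward for 7.71% of all genes as scaled and 19.0% as deposited. The eEF1B genes Eef1b2, Eef1d and Eef1g had log2 differences of 0.69, 0.83 and 0.53, none past the threshold.

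Among initiation factors, the helicase Eif4a1 stood at 159, 174, 163 and 85.9 in axons against 69.4, 65.0, 81.0 and 71.6 (log2 difference 0.96 ± 0.24, limma, adjusted p = 0.0405). Eif3l stood at 95.6, 51.2, 52.0 and 65.2 against 30.5, 28.8, 34.8 and 24.1 (1.098 ± 0.26, adjusted p = 0.0303). Eif5a stood at 146, 127, 98.3 and 93.5 against 70.02, 64.2, 59.1 and 66.7 (0.81 ± 0.21, adjusted p = 0.0410). Eif3b, at 31.1 to 84.4 against 15.4 to 20.9, was the other higher member (1.26 ± 0.33, adjusted p = 0.0471). Axonal and somatodendritic values did not overlap for these 4 as scaled, but did for all 4 as deposited. In deposited FPKM the log2 differences were 0.38 for Eif4a1, 0.52 for Eif3l, 0.22 for Eif5a and 0.69 for Eif3b, with adjusted p from 0.195 to 0.490 (limma). The snoRNA genes inside Eif4a1 were listed at means of 13.3, 6.82 and 0 in control somatodendritic and of 26.8, 23.4 and 12.2 in control axonal libraries. The pseudogene Eif4a-ps4 was also higher in axons, at 130 to 192 against 82.0 to 106, so reads may be split between these genes.

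Below the adjusted threshold, Eif2s1 (11.6, 12.2, 13.6 and 11.1 against 6.93, 6.41, 6.08 and 6.22), Eif6 and Eif4g1 (106, 85.8, 100 and 65.6 against 50.5, 64.0, 49.98 and 62.6) were higher at an unadjusted p under 0.05. Eif4g2 was lower in control axons, with 351 to 517 against 557 to 658 and no overlap (log2 difference -0.58 ± 0.17, adjusted p = 0.0672, limma). Of the 14 eIF3 genes 11 were higher in axons as scaled, beside 42 of 60 tested members and 49.3% of all genes. In deposited FPKM 31.7% of the members and 28.9% of all genes were higher. The eIF2 kinases and eIF2B genes were split, 4 higher and 5 lower together.

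Control axonal replicate 4, of high mitochondrial share, lay nearest to the somatodendritic values for Eif4a1, Eif3a, Eif4g1, Eif5a and Eif4g2. It is the 1 library of high share in this comparison, so the term and the low set both set this library aside. Its mitochondrial share cannot be told apart from its other properties here. Without replicate 4, 16 members passed an adjusted p under 0.05 in place of 7. With the mitochondrial share as a term 13 were higher and 2 lower at that threshold. Calls over all genes also rose, from 4.19% higher and 2.56% lower to 6.76% and 4.51% without it and to 6.59% and 4.39% with the term.

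**Figure D3:**
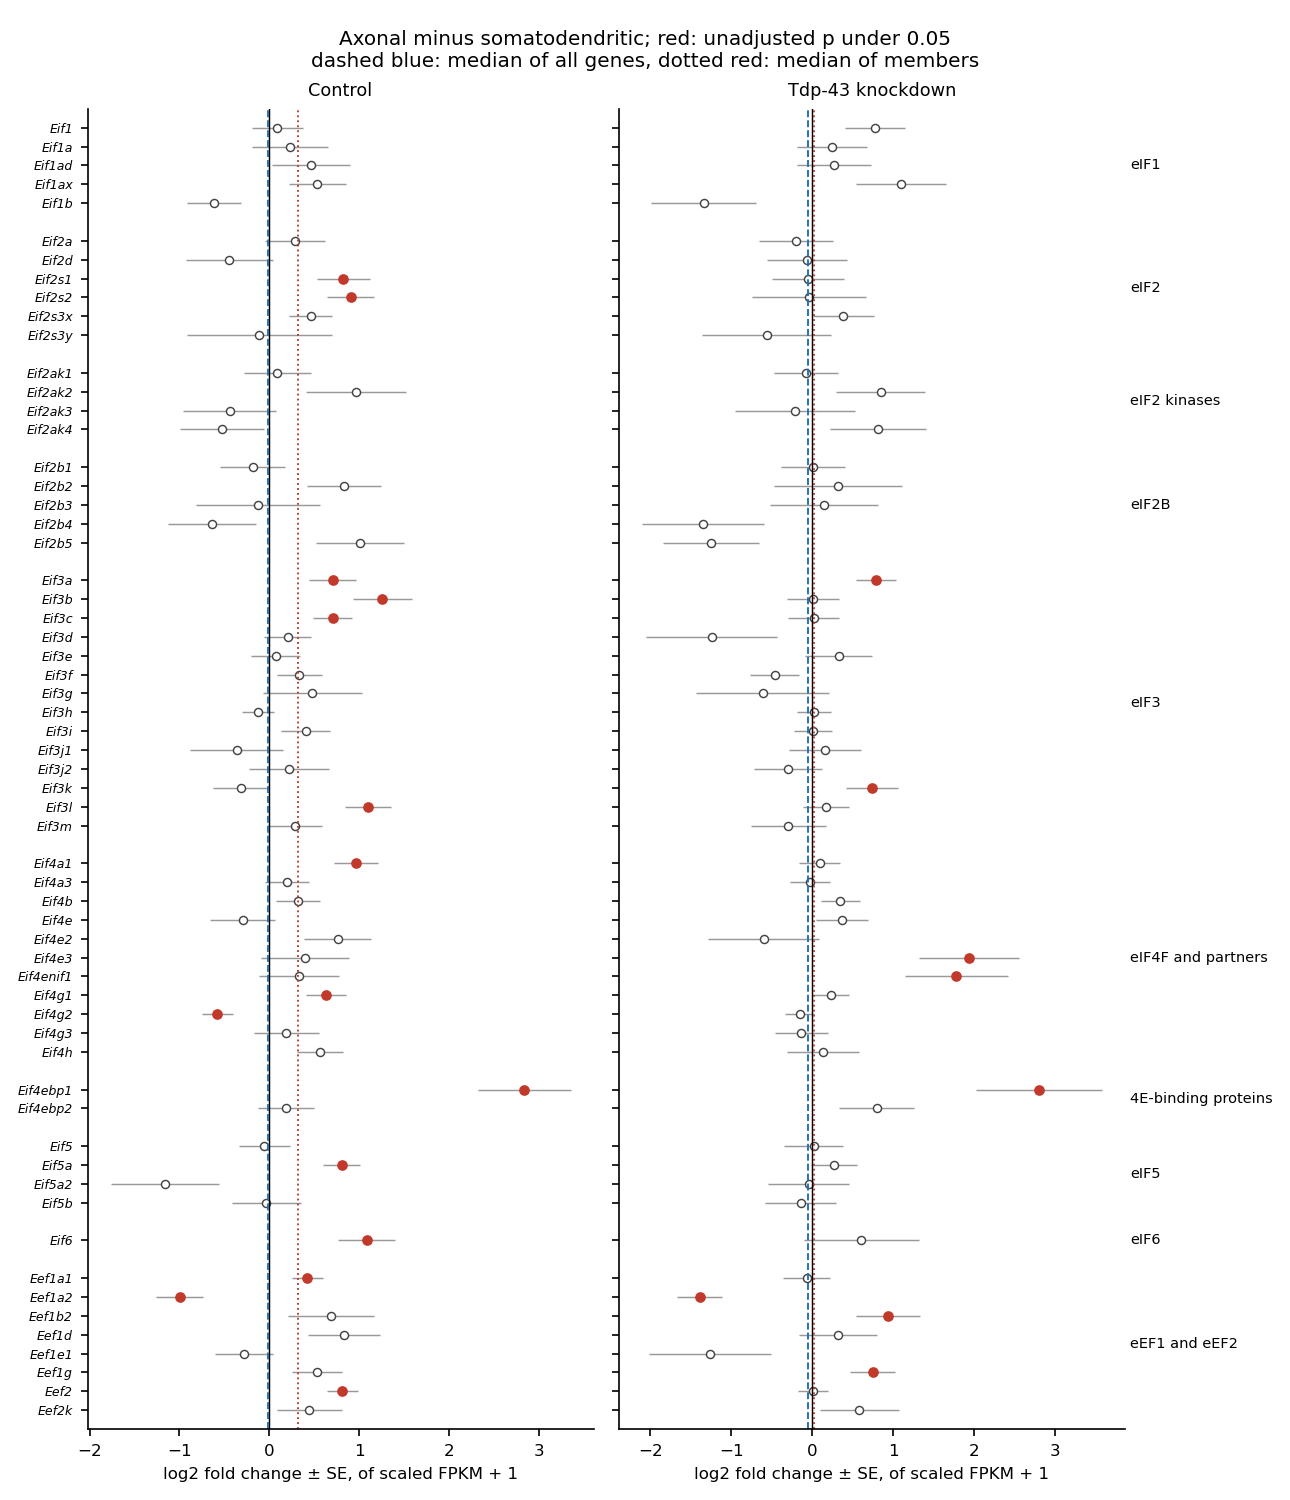
Log2 difference (± SE, x axis) of each of the 60 tested members between axonal and somatodendritic libraries, in control (left) and Tdp-43 knockdown (right) cultures, ordered by complex; red points have an unadjusted p under 0.05, the dashed line is the median of all genes and the dotted line that of the members. The members' median is 0.32 in control and 0.02 in the knockdown as scaled, the latter 0.30 with the high mitochondrial share as a term, and Eef1a2 lies to the left and Eif4ebp1 to the right in both panels.

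Knockdown axons were compared with knockdown somatodendritic libraries in the same way. At an unadjusted p under 0.05, 7 members were higher and 1 lower, where 8.02% of 14021 genes were higher and 8.64% lower. Eef1a2 alone passed an adjusted p under 0.05, a call made for 0.464% of all genes downward and 0.956% upward, and it did so when 5 of the 12 libraries were left out in turn but not the other 7. Groups without overlap were seen downward for 1.35% of all genes as scaled and 1.81% as deposited. The members' median was 0.02 beside -0.05 for all genes as scaled, and 0.30 beside 0.11 with the high mitochondrial share as a term. In the deposited values 3 members were higher and 4 lower at an unadjusted p under 0.05, where 5.499% and 12.6% of all genes were, with a median of -0.22 beside -0.24.

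Eef1a2 stood at 88.0, 139 and 151 (lowest, median, highest) in somatodendritic and at 33.7, 44.1 and 99.4 in axonal knockdown libraries (log2 difference -1.39 ± 0.28, limma, adjusted p = 0.0247). The groups overlapped through axonal replicate 3, at 99.4, where the next axonal value was 50.4. With the mitochondrial share as a term the log2 difference was -0.84 (adjusted p = 0.639). Eef1a2 kept an adjusted p under 0.05 in 6 of 10 alternative settings. Eif4ebp1 was listed at 0 in 4 of 6 somatodendritic libraries, with a highest value of 4.08, and reached 34.7 in axons with a median of 14.5 (log2 difference 2.80 ± 0.78, adjusted p = 0.0842). Axonal replicate 5, the shallowest, was the axonal library at 0, and without it Eif4ebp1 passed an adjusted p under 0.05.

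Eif3a, the largest eIF3 subunit, was the member whose groups did not overlap as scaled, at 19.8, 24.0 and 29.2 against 34.3, 40.0 and 59.4 in axons (log2 difference 0.79 ± 0.25, limma, adjusted p = 0.124). No overlap upward was seen for 1.13% of all genes as scaled and 0.742% as deposited. In deposited FPKM Eif3a overlapped too (22.3 to 38.8 against 34.6 to 59.3), and no member was without overlap. Eif3a was 54.0, 55.2, 60.1 and 29.2 in control axons and 29.04, 29.3, 27.2 and 30.4 in control somatodendritic libraries, so that 3 of 4 control axonal values were also high (0.71 ± 0.26). Eif4e3, a minor cap-binding protein, stood at 0, 1.91 and 4.71 against 3.70, 5.37 and 22.7 in axons (1.94 ± 0.61, adjusted p = 0.120). Eif4enif1, which carries eIF4E into the nucleus, stood at 0, 14.3 and 31.8 against 24.7, 37.8 and 58.8 (1.78 ± 0.63, adjusted p = 0.165). The 0 was somatodendritic replicate 6, the shallowest of its compartment. With each library left out in turn the difference ran from 1.06 to 2.08. Eif4enif1 overlaps the gene Drg1. Both genes had few estimated fragments, with medians of 2.02 for Eif4e3 and 1.42 for Eif4enif1. Their highest values lay in libraries of high mitochondrial share, and neither passed an unadjusted p under 0.05 with that share as a term.

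Within the knockdown libraries Eef2 did not differ between compartments beyond its spread (log2 difference 0.01 ± 0.19), nor did Eif4a1 (0.09 ± 0.25), Eif3l (0.17 ± 0.29) or Eif5a (0.27 ± 0.28). The change of these differences between control and knockdown is the contrast given above, in which no member passed the adjusted threshold.

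Shares among paralogues need no scaling between libraries and were compared by exact two-sided permutation tests of the library labels, 20 tests in all. Eef1a2 made up 7.05% to 8.04% of Eef1a1 and Eef1a2 together in control somatodendritic and 1.45% to 4.83% in control axonal libraries (exact p = 0.0286, the smallest 4 against 4 libraries can give, adjusted p = 0.0952). In the knockdown it was 7.09% to 9.77% in somatodendritic and 1.74% to 8.01% in axonal libraries (exact p = 0.0130, adjusted p = 0.0952). Knockdown and control did not differ in this share in the somatodendritic (8.07% against 7.45%, exact p = 0.324) or axonal libraries (3.92% against 3.16%, exact p = 0.605) beyond the spread.

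Eif4ebp1 took 7.08% to 24.3% of the 4E-binding protein FPKM in control somatodendritic and 31.3% to 80.6% in control axonal libraries (exact p = 0.0286, adjusted p = 0.0952). In the knockdown the means were 2.92% and 29.1% (exact p = 0.0152, adjusted p = 0.0952). In somatodendritic libraries the knockdown mean of 2.92% lay below the control mean of 12.1% (exact p = 0.0381, adjusted p = 0.109). Control replicate 4 was at 24.3% and the other controls at 7.08% to 9.67%. With each library left out in turn the difference ran from -11.1 to -5.11 percentage points. In 5 of the 10 fits so made the exact p was not under 0.05.

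Eif4g2 made up 86.7% to 89.4% of the FPKM of Eif4g1, Eif4g2 and Eif4g3 in control somatodendritic libraries and 87.9% to 92.6% in the knockdown, a difference of 0.718 percentage points (exact p = 0.571). In axons it made up 70.8% to 85.6% in control and 85.6% to 90.2% in the knockdown. The axonal ranges met without overlapping at 85.60% in control replicate 4 and 85.64% in knockdown replicate 5 (difference 9.85 percentage points, exact p = 0.00476, the smallest 4 against 6 libraries can give, adjusted p = 0.0952). Eif4g1 and Eif4g3 had log2 changes of 0.25 ± 0.17 and 0.37 ± 0.25 in the somatodendritic comparison and of -0.13 ± 0.30 and 0.07 ± 0.44 in the axonal one.

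Eif5a2, the less abundant eIF5A gene, held 3.29% to 8.79% of the pair in control somatodendritic and 0% to 5.56% in control axonal libraries (exact p = 0.0571). Eif2s3y held 0% to 49.3% of the eIF2 gamma pair over the 20 libraries, with no difference between groups beyond this spread (exact p from 0.543 to 0.779).

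**Figure D4:**
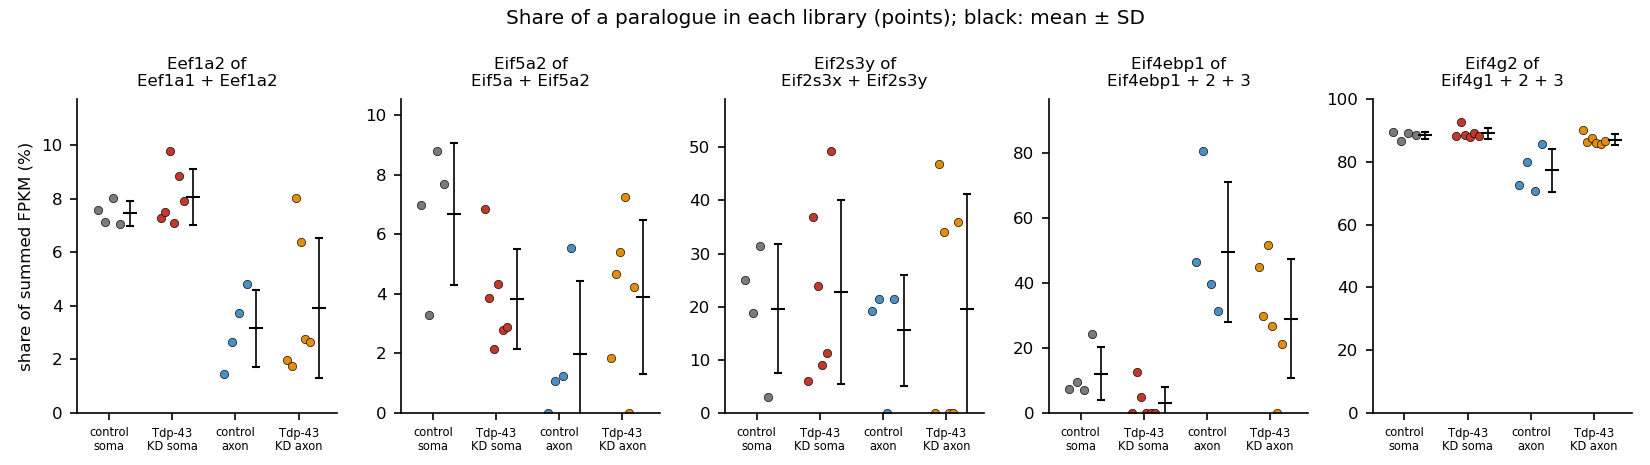
Share of one paralogue in the summed deposited FPKM of its family (%, y axis) in each library, by group (x axis), with black bars for mean ± SD. The Eef1a2 share is lower and the Eif4ebp1 share higher in axonal than in somatodendritic libraries, and the Eif4g2 share is lowest in control axons, at 70.8% to 85.6%.

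Other genes of the translation pathway were read from a list of 46 that holds termination factors, cap and poly(A) partners, the hypusine enzymes, signalling genes, stress-response genes and mitochondrial factors. In the somatodendritic knockdown comparison 2 were higher and 4 lower at an unadjusted p under 0.05, where 4.59% and 9.22% of all genes were. In the axonal comparison it was 2 and 3 of 45 tested, where 2.14% and 6.46% of all genes were, and no gene of the list passed an adjusted p under 0.05 (limma) in either. Their median log2 changes were -0.03 and -0.18, beside -0.13 and -0.17 for all genes. Poly(A)-binding protein Pabpc1 was higher in the somatodendritic knockdown libraries (0.38 ± 0.13, adjusted p = 0.229). Dohh, which completes the hypusine on eIF5A, was lower in the axonal ones (-2.09 ± 0.78, adjusted p = 0.442) and listed at 0 in knockdown replicates 5 and 6. Mcts1, a reinitiation factor, was lower in both (-1.72 ± 0.77 and -2.54 ± 0.75). Its groups overlapped in both, at 12.1 to 39.98 against 0 to 20.1 and at 4.30 to 26.5 against 0 to 5.30. It was listed at 0 in knockdown somatodendritic replicate 6 and knockdown axonal replicates 1, 2, 4 and 5. In the control compartment comparison 7 of 46 were higher and 2 lower, where 12.1% and 10.7% of all genes were. The kinase gene Akt1 was higher (0.81 ± 0.21, adjusted p = 0.0466) and Paip2, a poly(A)-binding protein inhibitor, lower in axons (-1.07 ± 0.24, adjusted p = 0.0261). In deposited FPKM the Akt1 groups overlapped, while those of Paip2 did not (67.4 to 82.0 somatodendritic against 16.7 to 33.2 axonal). The 4 stress-response genes held none past the unadjusted threshold in any comparison.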

How the data were processed

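The authors deposited 1 table per library with FPKM per gene and confidence bounds, made with Cufflinks 2.2.1 on GRCm38 (FastQC 0.10.1), per the processing notes. The file names show STAR. Annotation version and strand use are not given in the sources used here. The highest gene of a library, a lincRNA gene or a mitochondrial ribosomal RNA gene, took 16.4% to 49.2% of all FPKM, which moves deposited FPKM between libraries. FPKM were divided by median-of-ratios factors, over all libraries for printed levels and compartment comparisons, and within a compartment for knockdown comparisons and their contrast. The test was limma 3.58.1 (R 4.3.3, trend, two-sided) on log2(scaled FPKM + 1) for genes averaging 1 FPKM or more, and p-values were adjusted by Benjamini-Hochberg across every gene tested. Fold changes on this scale understate changes of low genes. Python 3.11.15 was used for summaries. The fit was tested on simulated data.

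The members and lists were chosen with earlier results of these data known. Values are given per library for most control groups, and otherwise as lowest, median and highest or as a range. They cover the members with the 8 smallest p in each knockdown comparison, the 5 smallest in each compartment comparison, any with an adjusted p under 0.05 in a knockdown comparison or the contrast, and 15 named by role. Fragments were estimated from the bounds as (2 FPKM / (upper bound - FPKM)) squared, on counting error alone. Alternatives were deposited FPKM, quantile normalization, pseudocounts of 0.1 and 5, no filter, a mean of at least 5 FPKM, each library left out, and a replicate block. After seeing the data, libraries of at least 0.3 relative depth, the mitochondrial share (high from 20% of protein-coding FPKM) as a term, and only libraries of low share were added.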

Additional observations from a re-analysis of the deposited data

Results flagged for a closer look

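In 104 combinations of the 26 named members and 4 groups, the highest or lowest library was checked for standing apart from the others of its group, of which chance marks about 1 in 20. It did so in 7. These were Eef1a2 in knockdown axonal replicate 3 (99.4 scaled FPKM, the next 50.4), Eef1b2 in control somatodendritic replicate 2 (27.1, the next 74.2), Eif4e in knockdown somatodendritic replicate 6 (7.402, the next 18.2) and Eif6 in control somatodendritic replicate 3 (19.0, the next 25.5). The other 3 were all in knockdown axonal replicate 5, the shallowest library: Eef1d (87.1, the next 36.7), Eif1ax (104, the next 18.5) and Eif2s3x (65.5, the next 20.4).

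The knockdown effect differed between compartments at an unadjusted p under 0.05 for 6 members, none past adjustment (limma). The difference of log2 changes, axonal minus somatodendritic, was -0.78 for Eef2 (adjusted p = 0.922), -2.15 for Eif2b5 (0.938), -1.22 for Eif3b (0.938), -0.85 for Eif4a1 (0.938), -0.90 for Eif3l (0.949) and 1.07 for Eif3k (0.960).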

How the results depend on the processing

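Gene values were most sensitive to scaling: of 45 changes and differences of the 26 named members and of Eif3b past an unadjusted p under 0.05 (Eif2s2 and Eif3c, also past it between control compartments, are not among them), 28 lost it in deposited FPKM and 1 reversed, Eef1a1 between control compartments (-0.17). The others lost were 4 after quantile normalization, 2 with a pseudocount of 0.1, none with 5, 2 without a filter, 1 with a mean of at least 5 FPKM, 13 without libraries under 0.3 relative depth, and, of 37, 10 with the mitochondrial term and 13 in the low set. Counts of members moved as follows. In the somatodendritic knockdown comparison 1 member passed the adjusted threshold in deposited FPKM, 1 with a pseudocount of 5, 2 with a mean of at least 5 FPKM and 1 without shallow libraries, against 0, and 0 to 1 without 1 library. In the axonal knockdown comparison the 10 unadjusted calls became 6 in deposited FPKM (5 higher and 1 lower, against 2 and 8), 6 with the mitochondrial term, 6 in the low set, 5 without shallow libraries, and 4 to 14 without 1 library. Between control compartments the 15 unadjusted calls became 25 with the term and 25 in the low set (14 to 25 without 1 library), and the 7 adjusted calls (6 higher) became 5 in deposited FPKM (1 higher), 4 after quantile normalization, 4 without a filter, 15 with the term, 16 in the low set and 1 to 16 without 1 library. Between control compartments the term and the low set both set aside control axonal replicate 4 alone. Between knockdown compartments the 8 unadjusted calls became 5 with the term, and the 1 adjusted call became 0 with the term, 0 in the low set and 0 to 2 without 1 library. Eef1a2, lower in axons, kept the adjusted call in 6 of 10 alternatives. In 1 other alternative the call was Eif4ebp1, higher in axons, in its place. The cause of these moves was not tested. Same-numbered libraries did not deviate together (correlations of -0.09 to 0.14), so the numbers were not taken as pairs. With a replicate block the adjusted calls were 1 of 7 between control compartments and 0 of 1 between knockdown compartments, and 9 of the 45 gene values lost an unadjusted p under 0.05. Most members had few estimated fragments, which limits what could be detected.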
